A study of Mus musculus with 12 samples.

Results

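The laminin and nidogen genes encode the laminin chains and the nidogen linkers of the basement membrane, and 10 of them were followed across 4 stages of mouse lung development. They were taken from the deposited gene table by symbol: 4 alpha chains (Lama2, Lama3, Lama4 and Lama5), 2 beta chains (Lamb1 and Lamb2), 2 gamma chains (Lamc1 and Lamc3) and both nidogens (Nid1 and Nid2), out of 28004 genes. All 10 were in the table and all 10 passed the filter on low values, which kept 16827 genes. Lama1 and Lamb3 are described beside them. The libraries came from whole mouse lung at 1 embryonic stage, E17.5, and on postnatal days P3, P7 and P10, with 3 bulk RNA-seq libraries at each stage. At every stage the cells were sorted as positive for both Acta2-dsRed and Pdgfra-GFP, reporters driven from a smooth muscle actin gene and from the gene of a platelet-derived growth factor receptor, so all 12 libraries share the genotype and the sort and no library lacks a reporter. The labels name neither the strain nor the animals behind a library. Since separate animals are not documented for the replicates, the p-values cover only the scatter among these libraries, and that scatter may be technical.

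Laminins are secreted as trimers of an alpha, a beta and a gamma chain, which assemble into a sheet on the cell surface. The alpha chain carries most of the sites bound by integrins and dystroglycan, and nidogens join the gamma chain encoded by Lamc1 to the collagen IV network. In the lung, basement membranes lie under the epithelium, around the capillaries and around smooth muscle, and mesenchymal cells supply part of their chains.

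Deposited values summed to between 13328623 and 18740591 per library, with 20234 to 21235 genes above 0, and 4 abundant 7SL and 7SK RNA rows took 20.0% to 46.3% of a library. Levels are given as CPM, counts scaled to a common library size, with TMM scaling, which sets libraries against each other by the bulk of their genes. The deposited estimated counts behave as values already scaled by transcript length, so CPM of different genes are set side by side as per-length levels. Acta2 and Pdgfra were present in all 12 libraries, at 347 to 1080 CPM and 165 to 409 CPM. Their levels were not constant: Acta2 averaged 492 CPM at E17.5 and 1020 at P3, and Pdgfra 346 and 179. The E17.5 replicate 1 library stood apart by the summed level of 9 alveolar fibroblast markers, 2610 CPM against 660 and 574 in the other E17.5 libraries. The P10 replicate 1 library stood apart by endothelial markers (10 genes), at 16.9 CPM against 87.8 and 86.3 in the other P10 libraries. Calls were made at a Benjamini-Hochberg adjusted p under 0.05 over all 16827 genes with edgeR's quasi-likelihood test, which gave every adjusted p below unless another tool is named. With library totals as the scale in place of TMM, the median log2 fold change of all genes moved from -0.05 to 0.11 between E17.5 and P3, from 0.01 to 0.30 between P3 and P7, from 0.03 to 0.37 between P3 and P10 and from 0 to 0.50 between E17.5 and P10. Fold changes below are relative to the TMM scale, and the closing section lists those that change sign on the other.

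Over the 4 stages, 8 of the 10 genes differed (edgeR quasi-likelihood F test), where 32.1% of all genes did. Lama4 had the highest F (74.0, adjusted p = 3.4e-05), followed by Lamc3 (54.7, adjusted p = 9.5e-05) and Lamc1 (39.8, adjusted p = 0.000208). Nid2, Lamb2, Lama2, Nid1 and Lama3 also passed, with adjusted p from 0.00148 to 0.0455. Lama5 (F = 4.31, adjusted p = 0.0859) and Lamb1 (F = 0.232, adjusted p = 0.905) did not pass. The F test does not say at which stages a gene differed, and the comparisons of single stages follow by chain class.

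**Figure D1:**
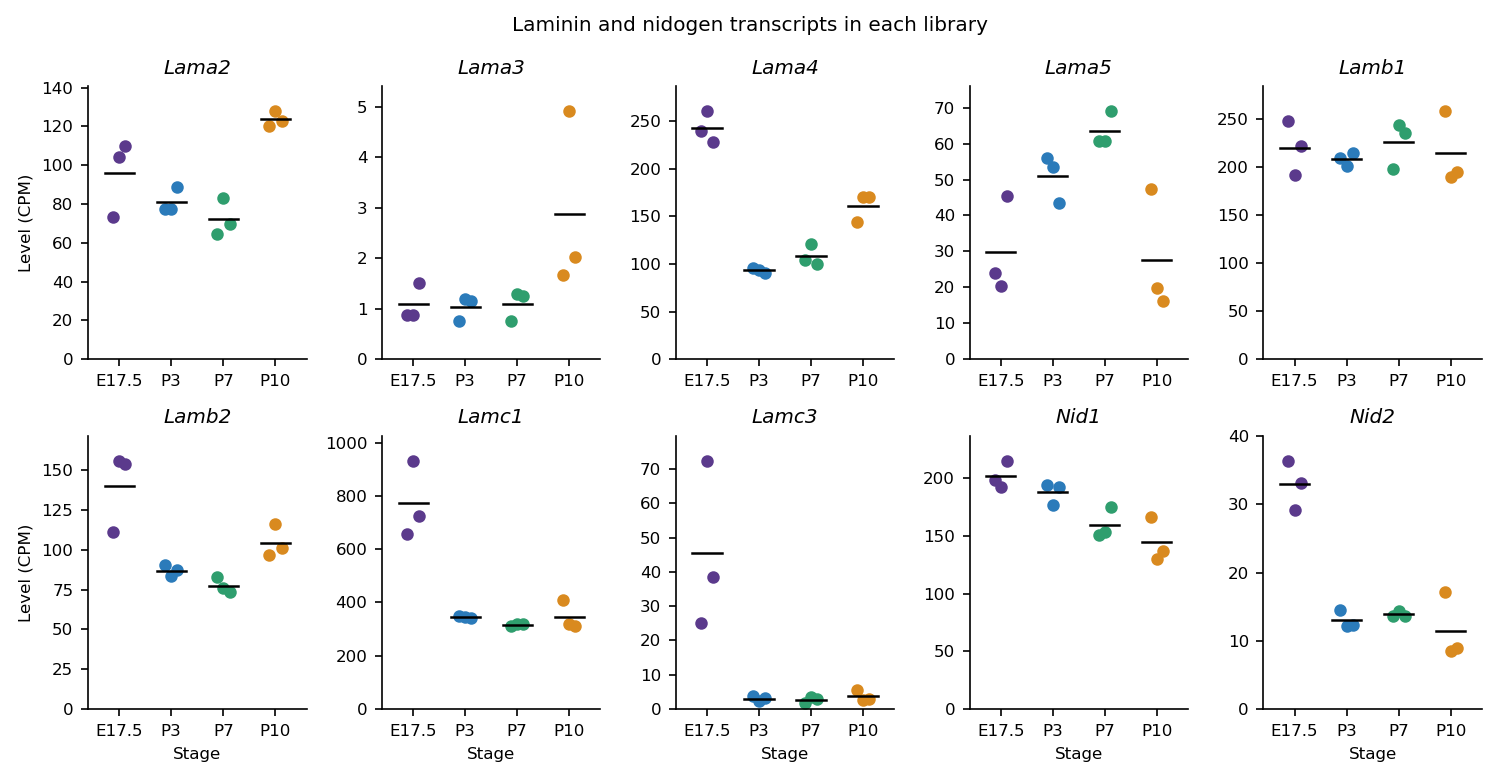
Level of each of the 10 genes in CPM (linear vertical axis from 0, own range per gene) in the 3 libraries of each stage; points are libraries, in replicate order from left to right, and bars are stage means. Lamc1, Lamc3, Lama4, Nid2 and Lamb2 have their highest means at E17.5, Lama5 is high at P3 and P7, and the Lamb1 libraries of all stages overlap.

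Promoter sequence from RefSeq (build GRCm38.p6) was found for 5 of the 10 genes, Lamb2, Lama2, Nid1, Lama5 and Lamb1, as windows from 250 bases before to 50 bases after the annotated start. Lama3, Lama4, Lamc1, Lamc3 and Nid2 had no entry. The upstream stretches outside annotated exons are shown because these 5 genes include a pair of beta chains with different courses, Lamb2, which fell after E17.5, and Lamb1, which did not pass any test. Lamb1 was added after its values were seen. Each is written 5′ to 3′ on the strand of its gene, with capitals for matches on either strand to the GC box GGGCGG or to CATTCC, the core letters bound by TEAD factors.
Lamb2, chr9:108479612-108479735, plus strand: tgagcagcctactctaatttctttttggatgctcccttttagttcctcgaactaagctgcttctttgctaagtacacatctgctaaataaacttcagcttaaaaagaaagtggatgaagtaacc
Lamb1, chr12:31265043-31265233, plus strand: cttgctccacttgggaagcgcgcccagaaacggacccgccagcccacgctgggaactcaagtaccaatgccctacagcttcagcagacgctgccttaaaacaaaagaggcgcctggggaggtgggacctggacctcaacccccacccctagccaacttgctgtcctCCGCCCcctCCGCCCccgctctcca
Lama2, chr10:27616943-27617192, minus strand: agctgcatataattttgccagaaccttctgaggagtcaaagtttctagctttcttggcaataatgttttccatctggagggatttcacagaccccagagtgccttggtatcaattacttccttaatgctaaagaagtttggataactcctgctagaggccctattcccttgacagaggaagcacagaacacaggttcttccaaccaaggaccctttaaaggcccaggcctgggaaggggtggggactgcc
Lama5, chr2:180225860-180226109, minus strand: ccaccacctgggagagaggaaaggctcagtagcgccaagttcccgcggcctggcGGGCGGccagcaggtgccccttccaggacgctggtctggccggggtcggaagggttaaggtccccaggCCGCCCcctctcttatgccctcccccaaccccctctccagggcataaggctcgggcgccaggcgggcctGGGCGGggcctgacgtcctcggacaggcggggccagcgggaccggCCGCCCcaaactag
Nid1, chr13:13437352-13437550, plus strand: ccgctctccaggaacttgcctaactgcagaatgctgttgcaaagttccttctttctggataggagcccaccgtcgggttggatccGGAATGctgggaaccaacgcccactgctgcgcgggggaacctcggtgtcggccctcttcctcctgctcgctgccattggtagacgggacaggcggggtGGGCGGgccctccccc
Over its whole 300-base window, Lama5 had 72.7% G and C, 24 CpG and 4 GC boxes. The windows of Nid1 (64.7%, 20 CpG, 1 GC box) and Lamb1 (63.7%, 18 CpG, 2 GC boxes) were also rich in CpG. Lamb2 (44.0%, 4 CpG, no GC box) and Lama2 (50.3%, 1 CpG, 1 GC box outside the stretch shown) were poorer. Over all 32544 windows the median was 53% G and C and 7 CpG, with quartiles of 3 and 20 CpG. The single CATTCC match was in Nid1, no window of the 5 held TATAAA, and the E-box letters CANNTG were in all but Nid1. Of all windows 35.9% held GGGCGG, 14.6% CATTCC, 13.6% TATAAA and 72.3% CANNTG, and no motif is contained in another. The RefSeq starts of Lama2, Lamb2, Lamb1 and Nid1 lie inside the longer GENCODE genes. The stretches shown for Lamb2, Lamb1 and Nid1 end 127, 60 and 52 bases before those starts. A match is a description of these letters and not a binding site.

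Both gamma chains fell after E17.5. Lamc1 (chromosome 1, 153218922 to 153332786, minus strand, GRCm38), the gamma chain of most laminins, stood at 657, 932 and 725 CPM in the E17.5 libraries, 349, 346 and 341 at P3, 311, 321 and 320 at P7, and 411, 319 and 312 at P10. Every E17.5 library lay above every later one. Lamc1 was 2.24-fold lower at P3 than at E17.5 (log2 fold change -1.16, SE 0.14, adjusted p = 0.000358), and its P10 level was still lower than E17.5 (-1.15, SE 0.14, adjusted p = 0.00036). With library totals as the scale, the P10 difference was -0.63 and missed the threshold (adjusted p = 0.06). From P3 on its level did not pass a test, with 0.01 between P3 and P10 (adjusted p = 0.972).

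Lamc3 (chromosome 2, 31887291 to 31946539, plus strand), a gamma chain of more restricted tissues, measured 25.2, 72.4 and 38.6 CPM at E17.5, then at 3.68, 2.28 and 3.11 at P3, 1.84, 3.49 and 2.89 at P7, and 5.58, 2.65 and 3.0 at P10. The 3 E17.5 libraries spread widely, and the lowest of them was well above all 9 later libraries. Lamc3 was 15.0-fold lower at P3 than at E17.5 (log2 fold change -3.91, SE 0.45, adjusted p = 0.000258), with P10 against E17.5 at -3.60 (SE 0.44, adjusted p = 0.000355). With single libraries left out in turn, the P3 difference lay between -4.20 and -3.39 and passed in 12 of 12 fits.

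Some pericyte markers fell in the same interval as these genes and as Lama4 and Nid2, described next. Over 10 pericyte markers the summed level was 334, 455 and 426 CPM at E17.5 and 182, 225 and 236 at P3. Postn was the largest single part of that sum, with means of 183 and 108 CPM. None of the 10 was at 0 in every library, and 3 fell between E17.5 and P3 (12% of all genes fell): Cspg4 from 31.7 to 5.12, Rgs5 from 72.5 to 15.3 and Notch3 from 10.9 to 4.82 CPM (means). The other 7 did not pass, among them Postn, Kcnj8 (17.6 and 16.6 CPM), Abcc9 (8.67 and 8.07) and Higd1b (2.64 and 4.52). Among 10 markers of the sorted cells, 4 rose and 2 fell from E17.5 to P3 (13.1% and 12% of all genes). Acta2 rose (log2 fold change 1.06, SE 0.28, adjusted p = 0.0183) and Pdgfra fell (-0.95, SE 0.19, adjusted p = 0.0043). Alveolar fibroblast markers were 2610, 660 and 574 CPM at E17.5 and averaged 833 ± 144 (SD, n = 3) at P3. Markers of erythroid cells averaged 156 CPM at E17.5 and 45.9 at P3, and those of airway epithelium 18.5 and 112. Of the 6 airway markers 3 were tested, and 2 rose (13.1% of all genes): Tppp3, with means of 12.6 and 78.9 CPM, and Scgb1a1, with 1.74 and 29.7. Scgb3a2 (3.91 and 2.94) did not pass. The part of these in the results was not tested, and in bulk samples fewer cells of a type and less RNA per cell cannot be told apart.

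Among the alpha chains, Lama4 had the clearest course, a drop after E17.5 with a later rise, Lama2 rose by P10, and Lama5 had its highest levels at P7 with no call. Lama4 (chromosome 10, 38965515 to 39110188, plus strand), the alpha chain best known from vessels and mesenchyme, read 240, 261 and 228 CPM at E17.5, 96.4, 93.5 and 90.9 at P3, 104, 121 and 100 at P7, and 144, 170 and 170 at P10. The stages did not overlap. Lama4 was 2.59-fold lower at P3 than at E17.5 (log2 fold change -1.37, SE 0.10, adjusted p = 2.4e-05). It rose from P3 to P10 by 0.79 (SE 0.10, adjusted p = 0.0016) and stayed lower at P10 than at E17.5 (-0.59, SE 0.10, adjusted p = 0.00297). These 3 calls passed in 12 of 12 fits that left out a library, but with library totals as the scale the P10 to E17.5 difference was -0.06 (adjusted p = 0.884). Of the 10 pericyte markers, 2 rose and 1 fell between P3 and P10 (7.9% and 9.4% of all genes), and 7 did not pass. Rgs5 rose, with means of 15.3 CPM at P3, 27.8 at P7 and 68.2 at P10 (P10 against P3 2.15, SE 0.24, adjusted p = 9e-04). Higd1b averaged 4.52 CPM at P3 and 0.711 at P10, Cspg4 5.12 and 5.32, and Notch3 4.82 and 4.72. The sums over 10 pericyte markers averaged 214, 276 and 311 CPM at P3, P7 and P10, of which Postn averaged 108, 133 and 125. Those over 10 endothelial markers averaged 29.5, 33.6 and 63.7 CPM, with 16.9, 87.8 and 86.3 in P10 replicates 1, 2 and 3. In P10 replicate 1, Lama4 was at 144 CPM and Lama2 at 120. The part of these in the rise of Lama4, and in that of Lama2 below, was not tested.

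Lama2 (chromosome 10, 26980036 to 27619758, minus strand) encodes the alpha chain of muscle basement membrane, whose loss causes muscular dystrophy. Its libraries read 73.5, 104 and 110 CPM at E17.5, 77.5, 77.3 and 88.7 at P3, 64.4, 83.3 and 69.7 at P7, and 120, 128 and 123 at P10. The P10 libraries were the highest of all 12. Lama2 was 1.70-fold higher at P10 than at P7 (log2 fold change 0.77, SE 0.15, adjusted p = 0.0265) and higher than at P3 (0.61, SE 0.15, adjusted p = 0.0206). Against E17.5 the difference was 0.37 (adjusted p = 0.118). Lama4 was also 1.5-fold higher at P10 than at P7 (0.58, SE 0.10, adjusted p = 0.0203). The call of Lama2 against P3 passed in 8 of 12 fits with a library left out, and was lost without P3 replicate 1 or 2 or P10 replicate 2 or 3 (adjusted p up to 0.0831). The calls of both genes against P7 were lost without any 1 of the 3 P7 libraries or of P10 replicates 2 and 3, and for Lama2 also without P3 replicate 2. The adjusted p was then up to 0.113 for Lama2 and 0.0901 for Lama4, and with library totals as the scale it was 0.27 and 0.404.

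Lama5 (chromosome 2, 180176373 to 180225859, minus strand), the alpha chain of epithelial basement membranes that lung development needs, measured 24.1, 20.3 and 45.5 CPM at E17.5, 56.0, 53.5 and 43.6 at P3, 60.6, 60.7 and 69.1 at P7, and 47.3, 19.8 and 16.1 at P10. The P7 libraries were the highest, and the P10 libraries were all lower than at P7 but differed widely from each other. No difference passed with edgeR: the P10 to P7 log2 fold change was -1.20 (SE 0.40, adjusted p = 0.13) and that of P3 to E17.5 was 0.76 (SE 0.40, adjusted p = 0.196). DESeq2 called Lama5 lower at P10 than at P7 (-1.19, adjusted p = 0.0165). Without P10 replicate 1 the edgeR difference from P7 was -1.85 (adjusted p = 0.0152) and that from P3 -1.54 (adjusted p = 0.01). In P10 replicate 1, where Lama5 was 47.3 CPM, the sum of endothelial markers was 16.9 CPM, and that of alveolar epithelial markers 55.4 CPM against 196 and 146 in P10 replicates 2 and 3. Airway epithelial markers summed to 70.9 CPM there, against 205 and 252. The 10 markers of the sorted cells were higher there as a sum, at 5360 CPM against 4060 and 3990. Of the 2 reporter genes, Acta2 was higher there (676 CPM against 364 and 420) and Pdgfra lower (177 against 249 and 236). The part of these in the result was not tested.

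Lama3 (chromosome 18, 12333819 to 12583013, plus strand), the alpha chain of the epithelial anchoring laminin, was close to absent, at 0.748 to 1.51 CPM in the 9 libraries before P10 and 1.66, 4.92 and 2.03 at P10. All P10 libraries were above all earlier ones. The difference from P3 was 1.46 (SE 0.45, adjusted p = 0.049). It passed in 1 of 12 fits with a library left out and was 0.83 (adjusted p = 0.227) without P10 replicate 2. Lama1, an alpha chain of early embryos and epithelium, averaged 1.84, 3.24, 1.40 and 0.331 CPM at the 4 stages, and was lower at P10 than at P3 (log2 fold change -3.26, SE 0.67, adjusted p = 0.0098).

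**Figure D2:**
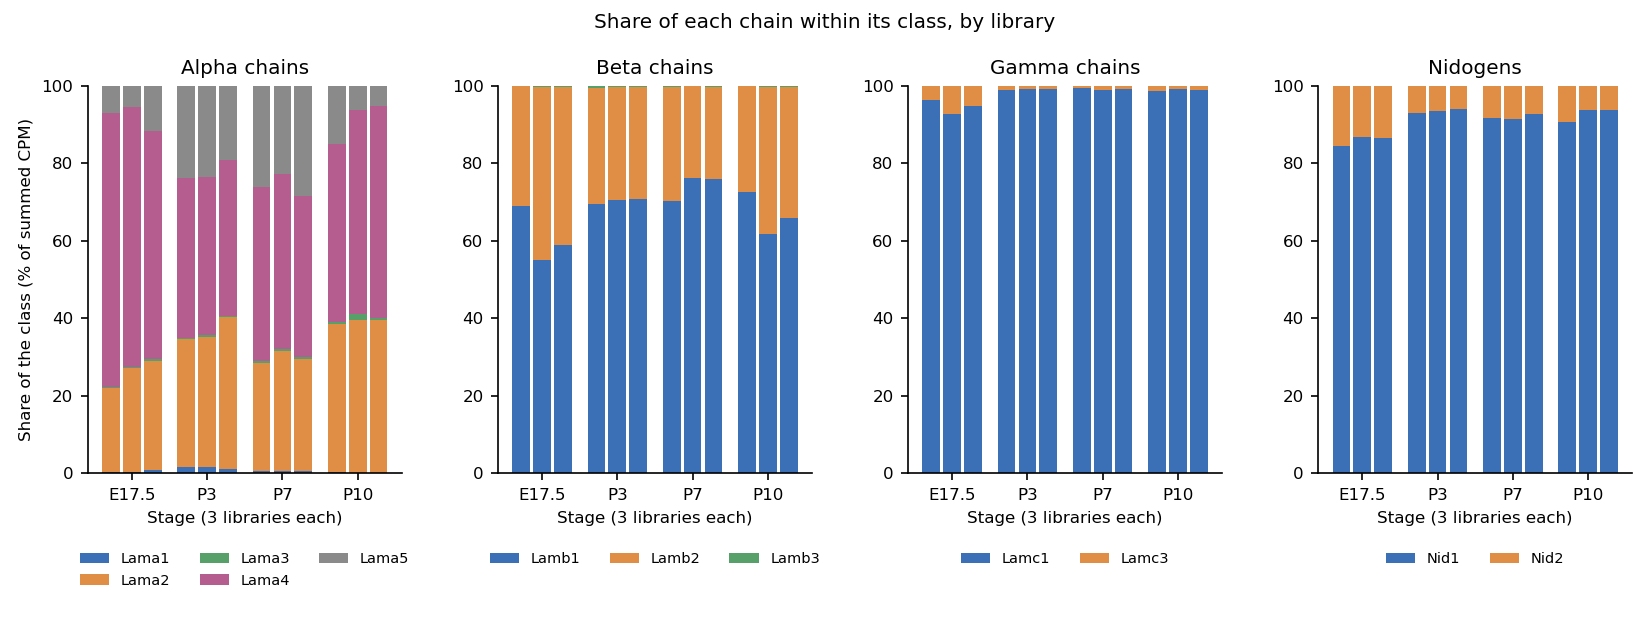
Share of each gene in the summed CPM of its class (percent, vertical axis from 0 to 100), 1 bar per library in replicate order, 3 libraries at each stage. Lama4 holds 58.8% to 70.7% of the alpha sum at E17.5 and 40.1% to 41.2% at P3, and Lamc1 holds 92.8% to 99.4% of its sum with Lamc3.

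The beta chains went separate ways. Lamb2 (chromosome 9, 108479736 to 108490530, plus strand), known from the neuromuscular junction, the kidney filter and vessel walls, measured 111, 156 and 154 CPM at E17.5, 90.2, 83.4 and 87.3 at P3, 83.0, 75.8 and 73.5 at P7, and 96.8, 116 and 101 at P10. The E17.5 libraries lay above those of P3 and P7 without overlap, and overlapped those of P10. Lamb2 fell from E17.5 to P3 by 0.69 on the log2 scale (SE 0.13, adjusted p = 0.00366), and with library totals as the scale the difference was -0.52 (adjusted p = 0.208). The P10 level was above P7 in all libraries, but the difference of 0.43 missed the threshold (SE 0.13, adjusted p = 0.0994) and passed with DESeq2 (0.43, adjusted p = 0.0195). A lower level at P10 than at E17.5 (-0.43, SE 0.13, adjusted p = 0.0464) passed in 1 of 12 fits with a library left out, with an adjusted p of up to 0.152 in the others. It was 0.0761 with replicate number as a block, 0.0553 with limma-voom and 0.167 with only those 2 stages, and library totals turned the difference to 0.08.

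Lamb1 (chromosome 12, 31265234 to 31329644, plus strand), the beta chain of most early laminins, read 248, 192 and 222 CPM at E17.5, 210, 202 and 215 at P3, 198, 244 and 236 at P7, and 259, 190 and 195 at P10. The 4 stages overlapped throughout, and the differences from E17.5 were -0.08 at P3 (SE 0.14, adjusted p = 0.73) and -0.04 at P10 (adjusted p = 0.88). Lamb3, the beta chain of the laminin that holds Lama3, averaged between 0.512 and 1.26 CPM and did not pass.

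The nidogens also differed from each other. Nid2 (chromosome 14, 19751265 to 19811787, plus strand), the less abundant nidogen, measured 36.4, 29.2 and 33.2 CPM at E17.5, 14.5, 12.2 and 12.3 at P3, 13.6, 14.3 and 13.7 at P7, and 17.1, 8.54 and 8.90 at P10. Each E17.5 library was above each later one. Nid2 was 2.54-fold lower at P3 than at E17.5 (log2 fold change -1.34, SE 0.23, adjusted p = 0.00207) and -1.52 at P10 against E17.5 (SE 0.23, adjusted p = 0.00125). Without P10 replicate 1, the highest P10 library, Nid2 was also lower at P10 than at P3 (-0.60, adjusted p = 0.0111) and than at P7 (-0.69, adjusted p = 0.0182), which with all libraries gave -0.17 (adjusted p = 0.654) and -0.27 (adjusted p = 0.559).

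Nid1 (chromosome 13, 13437551 to 13512269, plus strand), the widespread nidogen, read 198, 192 and 215 CPM at E17.5, 194, 177 and 192 at P3, 151, 153 and 175 at P7, and 166, 130 and 137 at P10. The stage means declined in order. Libraries overlapped between E17.5 and P3 and between P7 and P10, and all P7 libraries were below all P3 libraries. Nid1 was lower at P10 than at E17.5 (log2 fold change -0.48, SE 0.11, adjusted p = 0.0125), in 10 of 12 fits with a library left out and not without P10 replicate 2 (adjusted p = 0.0559) or 3 (adjusted p = 0.0598). The difference was -0.01 (adjusted p = 0.989) with library totals as the scale, and its adjusted p was 0.0759 with only those 2 stages. The difference from P3 at P10 (-0.38, SE 0.11, adjusted p = 0.0398) passed in 3 of 12, and with library totals it was -0.05 (adjusted p = 0.927). From E17.5 to P3 it was -0.10 (adjusted p = 0.546).

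**Figure D3:**
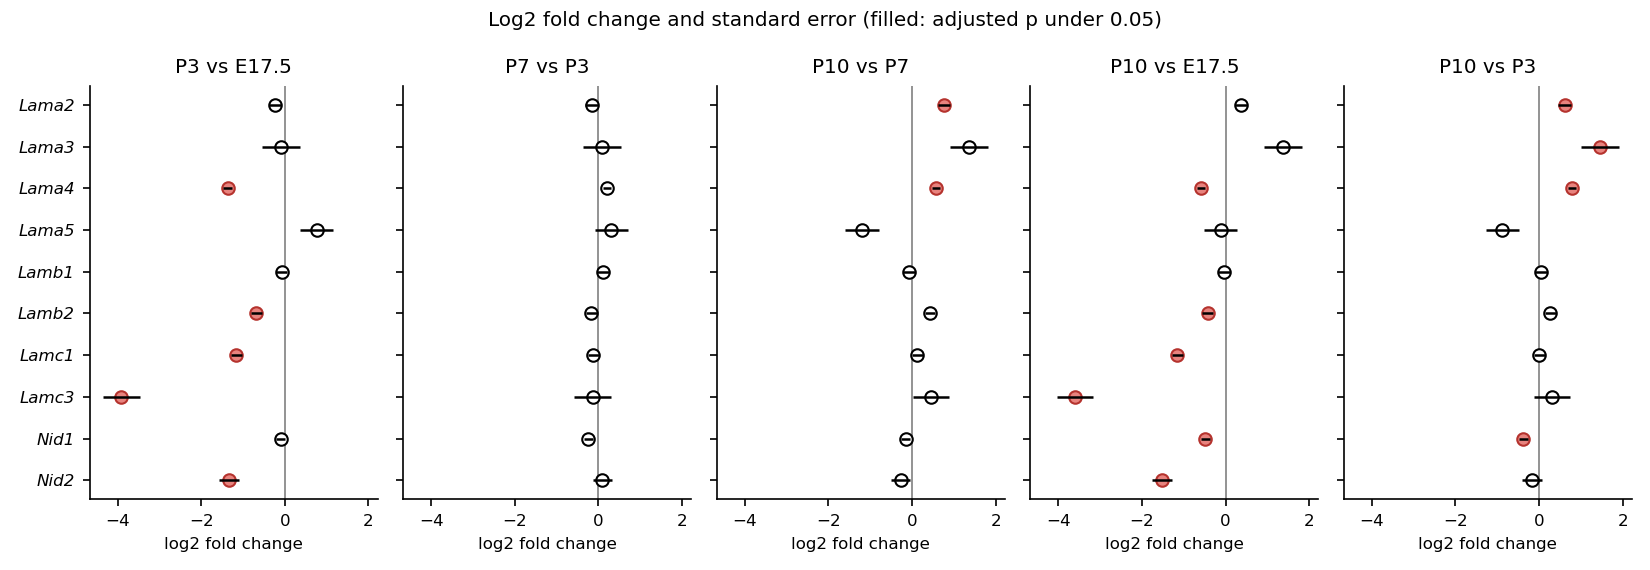
Log2 fold change with its standard error for the 10 genes in 5 comparisons of stages (linear horizontal axis, 0 marks no difference); filled points passed an adjusted p of 0.05 with edgeR. In P3 against E17.5 the filled points are Lama4, Lamb2, Lamc1, Lamc3 and Nid2, all to the left of 0, and no point is filled in P7 against P3.

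Counted by stage, 5 of the 10 genes fell from E17.5 to P3 (12% of all genes fell) and none rose (13.1% of all genes rose). Their median log2 fold change was -0.47, and that of all genes tested was -0.05. Between P3 and P7 none passed in either direction with edgeR, where 0% of all genes were higher and 0.00594% lower. None of the 10 had an unadjusted p under 0.05 in that test, where 14.3% of all genes did. DESeq2 also called none of the 10, where it called 1.85% of all genes higher and 2.78% lower. In that interval Lama4 and Lama5 were higher in every P7 library than in every P3 library, as were 12.7% of all genes, and Lamb2, Lamc1 and Nid1 were lower in every one, as were 13.2%. Between P7 and P10, 2 genes rose (1.4% of all genes) and none fell (2.25%). With DESeq2 in place of edgeR, 4 were higher at P10 (5.28% of all genes by that tool) and 1 was lower (6.18%). Between E17.5 and P10, 6 fell (9.5% of all genes) and none rose (8.79%). Between P3 and P10, 3 rose (7.9%) and 1 fell (9.4%). The comparisons share libraries, so their counts are not independent of each other. Without E17.5 replicate 1 and P10 replicate 1, an alternative added after seeing the data, 6 fell from E17.5 to P3 and 6 from E17.5 to P10, 3 rose and 2 fell from P7 to P10, and 4 rose and 3 fell from P3 to P10. Over all genes, both directions together, that fit called 3966, 2634, 1018 and 3388 in these comparisons. The main fit called 4225, 3077, 613 and 2912, so the counts from P7 to P10 and P3 to P10 were larger over all genes too.

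The composition of each class followed from these levels. Of the alpha sum, Lama4 was 70.7%, 67.3% and 58.8% at E17.5, 41.2%, 40.8% and 40.1% at P3, 44.9%, 45.1% and 41.5% at P7, and 46.0%, 52.8% and 54.6% at P10. Lama2 was 25.6% ± 3.46 (SD, n = 3) of it at E17.5, 35.3% ± 3.29 on P3, 29.3% ± 1.69 on P7 and 39.1% ± 0.765 by P10. Lama5 was 7.10%, 5.25% and 11.7% at E17.5, 23.9%, 23.4% and 19.2% at P3, 26.2%, 22.7% and 28.6% at P7, and 15.1%, 6.13% and 5.16% at P10. Lama4 was thus the leading alpha chain in every library, and the Lama5 share in every P3 and P7 library was above that in every E17.5 and P10 library. No p-value is given for shares, since each rises when another chain falls. Lama1 and Lama3 stayed at or below 1.54% and 1.52%. Divided by transcript length again, the alternative where the values were not scaled, the stage means for Lama4 were 75.8%, 53.7%, 57.2% and 63.1%, and for Lama5 4.97%, 15.5%, 17.9% and 5.83%, in the same order of stages.

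Lamb1 was 69.0%, 55.1% and 58.9% of the beta sum at E17.5, averaged 70.3% ± 0.721 at P3 and 74.2% ± 3.38 at P7, and was 72.7%, 61.9% and 65.9% at P10. Its share at P10 overlapped that of E17.5. Of the sum of Lamc1 and Lamc3, Lamc3 was 3.69%, 7.21% and 5.06% at E17.5 and 0.589% to 1.34% in the 9 later libraries. Nid2 was 15.5%, 13.2% and 13.4% of the nidogen sum at E17.5 and 6.01% to 9.34% later. The ratio of Nid1 to Nid2 was 6.16 ± 0.637 at E17.5 and 14.5 ± 1.11 at P3 (SD, n = 3).

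In summed CPM, Lamc1 and Lamc3 together were at 682, 1000 and 763 at E17.5 and 313 to 417 in all later libraries. The alpha class was at 339 to 388 at E17.5, 227 to 234 at P3, 231 to 267 at P7 and 311 to 323 at P10. The beta class averaged 362 ± 13.9, 297 ± 9.12, 304 ± 20.4 and 320 ± 31.4 (SD, n = 3), and the nidogens 235 ± 13.6, 201 ± 10.2, 173 ± 13.5 and 156 ± 23.9. The sum of Lamc1 and Lamc3 was above the alpha and the beta sum in every library except P10 replicate 2, where it was 322 against 323 for alpha. By single genes on the per-length scale at E17.5, the means ran from Lamc1 (771 CPM) through Lama4 (243), Lamb1 (221), Nid1 (202), Lamb2 (140), Lama2 (95.8), Lamc3 (45.4), Nid2 (32.9) and Lama5 (30.0) to Lama3 (1.09). The libraries of Lamb1 overlapped there with those of Lama4 and with those of Nid1, and Lamc3, Nid2 and Lama5 overlapped each other. At P10 Lamc1 (348 CPM) and Lamb1 (215) led, Lama4 (162) and Nid1 (144) overlapped, and Lama2 (124) and Lamb2 (105) stood above Lama5 (27.7), Nid2 (11.5), Lamc3 (3.74) and Lama3 (2.87). Lama5 overlapped Nid2 there, and Lamc3 overlapped Lama3.

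The genes with the closest course were sought by the root mean square difference of log2 CPM over 12 libraries, each gene centred on its own mean, among 6756 genes. Nearest to Lama4 were Tmem87b (0.13), Dmpk (0.14), a muscle kinase, and Adcy9 (0.14), an adenylyl cyclase, where the median gene was at 0.60. Nearest to Lamc1 were Adcy2 (0.11), Mmp2 (0.11), a matrix metalloproteinase, and Irf2bpl (0.12), with a median of 0.58. Nearest to Lamc3 were Lox (0.48), the enzyme that cross-links collagen and elastin, Gdf10 (0.57) and Crispld2 (0.59), with a median of 1.68. Lox averaged 352 CPM at E17.5 and 32.8, 22.7 and 29.6 later. The libraries share their stages, and the distances are a description.

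Of 20 tested partners of laminin in the basement membrane (21 listed), 5 rose and 6 fell between E17.5 and P3, where 13.1% of all genes rose and 12% fell, with a median log2 fold change of -0.40. Hmcn1, which encodes the matrix protein hemicentin, rose from 21.2 to 130 CPM (2.62, SE 0.15, adjusted p = 8.11e-06). Ntn4 (-1.27, SE 0.26, adjusted p = 0.00571), whose netrin binds laminin gamma chains, fell in the same interval, as did Col15a1 (-1.26, SE 0.24, adjusted p = 0.00394) and Frem1 (-1.26, SE 0.39, adjusted p = 0.0409). Col4a1, a chain of the collagen IV network that nidogens join to laminin, averaged 1010, 741, 669 and 647 CPM at the 4 stages. None of the 20 passed between P3 and P7, where 0% of all genes rose and 0.00594% fell, or between P7 and P10 (1.4% and 2.25%). Between P3 and P10, 5 rose and 6 fell (7.9% and 9.4% of all genes). Frem1 fell further, from 37.0 to 9.68 CPM (-1.93, SE 0.41, adjusted p = 0.0117). Frem2 fell from 5.31 to 0.483 CPM (-3.44, SE 0.40, adjusted p = 0.00104) and Npnt, the integrin ligand nephronectin, from 85.8 to 13.3 (-2.68, SE 0.77, adjusted p = 0.0427), while Fras1 rose from 2.24 to 6.70 (1.58, SE 0.36, adjusted p = 0.0156).

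Of 9 tested laminin receptors (10 listed), 1 rose and 1 fell between E17.5 and P3, shares close to those of all genes (13.1% and 12%). Sdc1, a syndecan, rose from 11.9 to 32.0 CPM (1.42, SE 0.19, adjusted p = 0.000505), and Dag1, which encodes dystroglycan, fell from 66.6 to 51.0 (-0.38, SE 0.08, adjusted p = 0.00508). Dag1 then rose between P3 and P10 (0.31, SE 0.08, adjusted p = 0.0231) and Sdc1 fell (-0.86, SE 0.18, adjusted p = 0.0116). Itgb1, the beta subunit shared by most laminin-binding integrins, averaged 419, 511, 466 and 476 CPM. Among 10 tested proteins of the dystrophin complex, to which dystroglycan links laminin, 7 were higher at P10 than at E17.5 (8.79% of all genes) and 1 lower (9.5%). Between P3 and P10, 5 rose (7.9% of all genes) and none fell (9.4%). Those that rose included Dmd, the dystrophin gene, from 10.1 to 16.7 CPM (0.72, SE 0.15, adjusted p = 0.00968), and Dtna, from 7.31 to 20.0 (1.45, SE 0.28, adjusted p = 0.00741). Sntb2 (1.08, SE 0.21, adjusted p = 0.0078), a syntrophin, and Sspn (0.47, SE 0.14, adjusted p = 0.0372), which encodes sarcospan, also rose. Between E17.5 and P3, 2 of the 10 rose and 1 fell (13.1% and 12% of all genes). Sgcd, a sarcoglycan, rose from 10.4 to 16.0 CPM (0.64, SE 0.19, adjusted p = 0.0345) and Sspn from 4.12 to 5.79 (0.49, SE 0.14, adjusted p = 0.0246). Sgcb, another sarcoglycan, fell from 29.2 to 11.4 (-1.35, SE 0.15, adjusted p = 0.000205). The lists were chosen with earlier results of these data known, and are described by counts only.

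**Figure D4:**
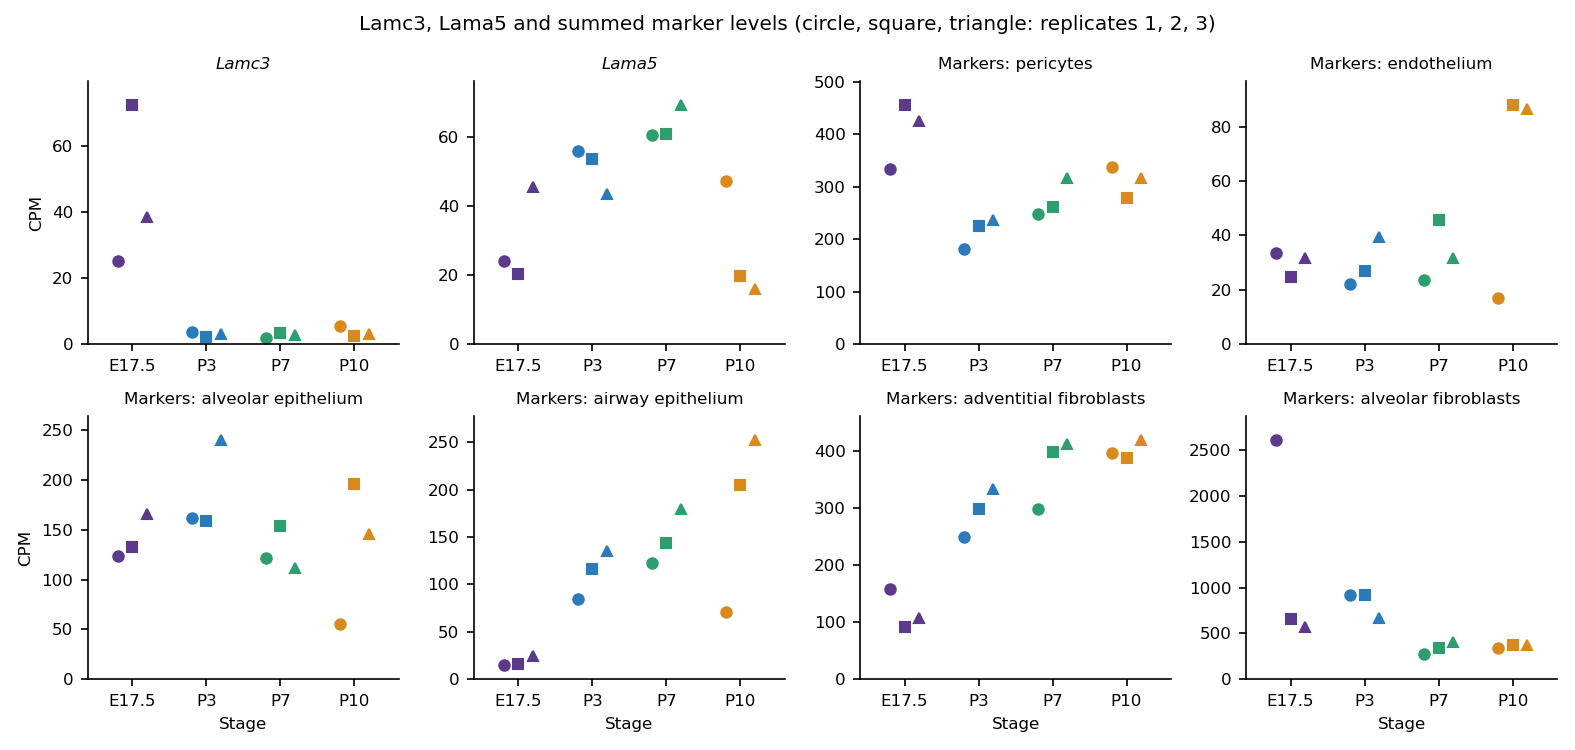
Lamc3, Lama5 and summed marker levels of 6 cell types in CPM (linear vertical axis from 0, own range per panel) in each library; circles, squares and triangles are replicates 1, 2 and 3 of a stage. The P10 replicate 1 library has the highest Lama5 of its stage and the lowest endothelial and epithelial sums, and E17.5 replicate 1 has the highest alveolar fibroblast sum.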

How the data were processed

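Whole lung was dissociated, cells positive for both reporters were sorted, and RNA went into a low-input stranded total RNA kit, per the labels' protocols, although the molecule label reads polyA RNA. The authors deposited 1 table of estimated counts, whole numbers for 28004 genes in 12 libraries. The build was GRCm38, per the submitters' processing notes. Which aligner, quantifier and gene models were used is not given in the sources used here. Deposited values had a 5th percentile, over counts above 0, of 36 for transcripts under 120 nt and 1 from 1000 nt, as length scaling would give, so a value is not a number of reads. Strand use in counting is not stated. Exons of Lama2, Lama3, Lamc3, Nid1 and Nid2 share bases with a gene on the opposite strand (143 to 631 bases), so reads of the partners cannot be told apart if strand was ignored.

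Positions and lengths are from GENCODE release M21 (92.3% of genes had a length). Rows were filtered with edgeR's low-count filter by stage, scaled by TMM and fitted in 1 model over 12 libraries with robust dispersion (edgeR 4.0.16, limma 3.58.1, R 4.3.3). The quasi-likelihood test was adjusted by Benjamini-Hochberg over 16827 genes, and the code was tested on simulated data. Alternatives were DESeq2 1.42.0, limma-voom, other scalings and filters, a replicate block and each library left out. The members and lists were chosen with earlier results of these data known. Named genes were the members, Lama1 and Lamb3, up to 4 passing list genes with the largest change, and the 3 nearest genes of the 3 members with the highest F. Col4a1 and Itgb1 were added after their values were seen, and 1 item under the rule is not reported here. Depth limits the precision of low genes such as Lama3, Lamb3 and Lama1.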

Additional observations from a re-analysis of the deposited data

How the results depend on the processing

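The 5 calls from E17.5 to P3 held in every fit that left out 1 library, and so did those of Lama4, Lamc1, Lamc3 and Nid2 from E17.5 to P10. With library totals as the scale, calls were lost for Lamb2 from E17.5 to P3 (-0.52), and for Lama4 (-0.06), Lamb2 (0.08), Lamc1 (-0.63) and Nid1 (-0.01) from E17.5 to P10. They were also lost for Lama2 (0.81) and Lama4 (0.64) from P7 to P10, and for Lama3 (1.76) and Nid1 (-0.05) from P3 to P10. Calls were gained from E17.5 to P10 for Lama2 (0.87) and Lama3 (1.78). On the same scale log2 fold changes changed sign for Lama3 (0.02), Lamb1 (0.05) and Nid1 (0.04) from E17.5 to P3. They also did for Lama2 (0.14), Lamb2 (0.13), Lamc1 (0.17), Lamc3 (0.18) and Nid1 (0.06) from P3 to P7, for Lama5 (0.21), Lamb1 (0.42) and Lamb2 (0.08) from E17.5 to P10, and for Nid2 (0.12) from P3 to P10. On that scale no member rose and none fell at the threshold from P7 to P10 (0 and 0), 2 rose and 2 fell from E17.5 to P10, and 0 fell from P3 to P10. The cause was not tested. The count falling from P3 to P10 was also 0 without the filter and 0 with only those 2 stages. With values multiplied by length, 1 rose from E17.5 to P10. DESeq2 gave 4 higher and 1 lower from P7 to P10 and 1 higher from E17.5 to P10, and limma-voom put Lamc1 at 0.00 from P3 to P10. The cause was not tested. Over all genes, library totals called 1499 from E17.5 to P3, 7 from P7 to P10 and 1002 from P3 to P10, in place of 4225, 613 and 2912, and DESeq2 called 1841 from P7 to P10 and 730 from P3 to P7, in place of 613 and 1.

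Leaving out libraries, P10 replicate 1 with E17.5 replicate 1 included, gave ranges across 0 for some differences. From E17.5 to P3 they were -0.22 to 0.25 for Lama3 and -0.15 to 0.01 for Lamb1. From P3 to P7 they were -0.09 to 0.28 for Lama3 and -0.36 to 0.06 for Lamc3. From P7 to P10 they were -0.25 to 0.01 for Lamb1 and -0.04 to 0.22 for Lamc1, with 0 to 3 members higher and 0 to 2 lower. From E17.5 to P10 they were -0.89 to 0.32 for Lama5 and -0.20 to 0.05 for Lamb1, with 0 to 1 higher and 4 to 6 lower. From P3 to P10 they were -0.15 to 0.12 for Lamb1, -0.16 to 0.08 for Lamc1 and -0.12 to 0.50 for Lamc3, with 1 to 4 members higher and 0 to 3 lower. The count that differed over the 4 stages ranged from 6 to 9. Over all genes, fits without 1 library called 22 to 790 from P7 to P10 and 1307 to 3053 from P3 to P10, and 307 were called from P7 to P10 without the filter.

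The replicate numbers did not pair the libraries: the correlation of same-numbered libraries ranged from -0.19 to 0.14, and in no comparison did every library correlate best with its own number. With replicate number as a block, the Lamb2 difference from E17.5 to P10 was -0.42 (adjusted p = 0.0761) and no other member's call changed. Over all genes the block called 2590 in place of 3077 in that comparison, and 310 in place of 613 from P7 to P10.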

Other observations

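Of 12 tested enzymes that build the laminin-binding sugar of dystroglycan, 1 rose and 1 fell from E17.5 to P3, where 13.1% of all genes rose and 12% fell. Tmem5 (Rxylt1), a xylosyltransferase, rose, with means of 10.6 and 17.1 CPM (0.69 in log2, SE 0.15, adjusted p = 0.00765), and B3galnt2 fell from 6.72 to 4.42 CPM (-0.61, SE 0.17, adjusted p = 0.0253). From P3 to P7 none of the 12 passed with edgeR, where 0% of all genes rose and 0.00594% fell. None passed from P7 to P10 (1.4% and 2.25% of all genes) or from P3 to P10 (7.9% and 9.4%). At P10, 1 was higher than at E17.5, a share close to that of all genes (8.79%). Sntb2, a syntrophin, was the 1 gene of 10 in the dystrophin complex that rose from P7 to P10, where 1.4% of all genes rose. Its means were 27.0 and 49.8 CPM (0.88, SE 0.21, adjusted p = 0.0463).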
